A study of Homo sapiens with 3 samples.

Results

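The interferon-stimulated genes described here are 43 genes, named by symbol, of the 22497 genes with a symbol in the count tables, and each symbol matched exactly 1 row. The list was chosen from earlier results of these data, in which the genes were higher in sensitive cells grown with resistant cells, so the values of that contrast are given as a description and no test is made of it. Single cells were profiled from spheroids of CAMA-1, an estrogen receptor-positive breast cancer cell line, in 3 libraries. Each spheroid began with 2000 plated cells, of which 100%, 50% or 0% were sensitive and the rest resistant. The sensitive cells carried Venus, and the resistant cells, a lineage of the same line selected by long growth in the CDK4/6 inhibitor ribociclib, carried mCherry. The label of all 3 libraries reads DMSO + 1 uM ribociclib, so every group was exposed to 1 µM of the drug, and cells were harvested after 11 days and frozen viably. With the lineage given in the deposited annotation, the cells fell into 4 populations: sensitive cells in monoculture (3329 cells), sensitive cells in coculture (2059), resistant cells in coculture (6292) and resistant cells in monoculture (7557). There was 1 library per condition, and cells are not replicates, so no p-value is given. The intervals below are 95% intervals that cover counting error only.

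Interferon-stimulated genes are switched on when type I or type III interferon binds its receptor, and the kinases JAK1 and TYK2 phosphorylate transcription factors that include STAT2. With IRF9, STAT2 is part of a complex that binds the interferon-stimulated response element (ISRE) in the promoters of the genes. The products block viral entry, bind or degrade foreign RNA, or attach the ubiquitin-like protein ISG15 to other proteins, and some of them, such as the RNA sensors and IRF7, feed back on interferon production itself. Tumor cells can express the genes without infection.

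Promoter sequences were taken for the members from RefSeq (GRCh38.p14), from 250 bases before to 50 bases after each annotated start, and 34 of the 43 genes had a window. The others were IFIT2, IFITM2, MX2, OAS2, OASL, IRF7, DHX58, USP18 and TRIM22. The ISRE core was searched as GAAANNGAAA on both strands. It was found in 23 of the 34 members (67.6%), against 1195 of all 27305 genes with a RefSeq promoter window (4.38%). That set is not limited to genes of the count tables. The core of the gamma-activated site, TTCNNNGAA, which reads the same on both strands, was found in 10 of the 34 members (29.4%) and in 9.38% of all genes. The windows below are shown because the genes stand for the patterns described further on: IFIT1 and IFIT3 were carried mainly by a few cells, ISG15 by more cells and BST2 by nearly all, IFI27 was higher in sensitive coculture cells inside and outside cluster 9, and STAT2, which has no ISRE core in its window, was not higher there. IFIT3 and IFI27 have 2 windows each, of which the one that starts first is printed. Capitals mark the ISRE cores, and overlapping cores run together.
IFIT1, chr10:89392373-89392672, strand +: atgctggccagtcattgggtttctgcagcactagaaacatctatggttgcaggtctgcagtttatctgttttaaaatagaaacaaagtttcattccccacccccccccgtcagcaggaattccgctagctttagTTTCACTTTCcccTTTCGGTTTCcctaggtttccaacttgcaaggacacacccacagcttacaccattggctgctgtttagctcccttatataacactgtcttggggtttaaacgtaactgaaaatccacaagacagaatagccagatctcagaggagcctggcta
IFIT3, chr10:89327747-89328046, strand +: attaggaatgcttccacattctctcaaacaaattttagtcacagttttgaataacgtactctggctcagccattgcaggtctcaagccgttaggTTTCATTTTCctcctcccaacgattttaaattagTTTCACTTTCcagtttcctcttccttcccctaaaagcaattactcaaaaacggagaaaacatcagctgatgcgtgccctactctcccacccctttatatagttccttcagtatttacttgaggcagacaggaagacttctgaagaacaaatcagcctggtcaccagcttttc
ISG15, chr1:1013247-1013546, strand +: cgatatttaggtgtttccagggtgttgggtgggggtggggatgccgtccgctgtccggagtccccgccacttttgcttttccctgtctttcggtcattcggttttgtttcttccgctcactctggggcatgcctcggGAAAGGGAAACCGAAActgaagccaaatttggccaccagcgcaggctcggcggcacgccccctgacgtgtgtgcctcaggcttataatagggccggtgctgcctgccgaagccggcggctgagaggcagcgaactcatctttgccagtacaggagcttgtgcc
BST2, chr19:17405581-17405880, strand -: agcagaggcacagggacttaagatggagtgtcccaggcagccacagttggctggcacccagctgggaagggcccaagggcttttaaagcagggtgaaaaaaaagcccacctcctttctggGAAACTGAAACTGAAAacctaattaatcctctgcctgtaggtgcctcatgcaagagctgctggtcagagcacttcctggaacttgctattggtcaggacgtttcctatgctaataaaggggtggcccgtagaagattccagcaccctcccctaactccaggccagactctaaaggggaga
IFI27, chr14:94110486-94110785, strand +: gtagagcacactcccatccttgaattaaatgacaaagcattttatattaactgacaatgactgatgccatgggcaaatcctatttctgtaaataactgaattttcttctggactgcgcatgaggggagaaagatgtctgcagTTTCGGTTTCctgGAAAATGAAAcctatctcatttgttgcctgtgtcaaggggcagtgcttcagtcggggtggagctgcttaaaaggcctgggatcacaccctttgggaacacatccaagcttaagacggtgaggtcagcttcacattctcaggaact
STAT2, chr12:56360058-56360357, strand -: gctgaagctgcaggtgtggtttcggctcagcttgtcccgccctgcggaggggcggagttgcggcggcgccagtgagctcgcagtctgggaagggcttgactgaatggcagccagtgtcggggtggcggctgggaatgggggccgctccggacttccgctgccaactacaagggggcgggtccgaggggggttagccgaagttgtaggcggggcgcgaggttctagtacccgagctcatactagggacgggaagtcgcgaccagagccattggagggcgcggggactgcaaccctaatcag
The first base of the cores of IFIT1 lies at -116 and -103 from the start, that of the IFIT3 cores at -156 and -122, and that of the ISG15 cores at -113 and -107. Among the 15 members that were at least 1.5-fold higher in sensitive coculture cells, 11 had a window and 10 of these held an ISRE core. Among the other 20 members measured with enough UMIs, 17 had a window and 10 held one. This split follows the contrast that chose the genes, and IFIT2, IFITM2, OAS2 and OASL of the 15 had no window, so no link is drawn from it. The search took exactly 2 bases between the GAAA repeats. Windows with the repeats at another spacing, such as those of OAS1 and DDX58, therefore count as without a core. A match is a match of letters in these windows and was not tested for function.

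UMIs (unique molecular identifiers, 1 for each captured RNA molecule) on genes with a symbol came to between 70896822 and 270891547 per population, with a median of 27622 to 35443 per cell. Levels are given as CPM, the UMIs of a gene summed over the cells of a population and scaled to a common total, so that populations of different depth can be compared. The tables are from the 3′ ends of transcripts, so a CPM does not depend on gene length, and levels of different members are set side by side on that scale. The cells expressed luminal epithelial markers (KRT8 at 1683 to 2139 CPM, GATA3 at 350.2 to 406 CPM), and the summed leukocyte markers stayed between 1.36 and 2.76 CPM, with PTPRC, which marks all leukocytes, at 0.0282 CPM or less. The summed fibroblast markers were higher, from 2.64 to 38.4 CPM, nearly all of it COL3A1 and COL1A1, while DCN, LUM and COL1A2 had between 0 and 5 UMIs per population. In coculture barcodes with at least 2 Venus UMIs, mCherry UMIs corresponded to 7.57% of RNA from resistant cells. Annotated cells of different libraries shared between 7 and 17 barcode sequences.

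The summed level of the 43 members was 914.6 CPM (908.5 to 920.6) for sensitive cells cultured alone and 1210.15 CPM (1202 to 1218) for those cocultured, a log2 ratio of 0.40 (0.39 to 0.42). Resistant cells stood at 834.6 CPM (830.6 to 838.6) in coculture and 910.8 CPM (907.2 to 914.4) in monoculture. Their coculture-to-monoculture log2 ratio of -0.13 (-0.14 to -0.12) was thus of the opposite sign. The resistant and the sensitive monoculture differed by a log2 ratio of -0.0060 (-0.017 to 0.0052), whose interval includes 0. Sensitive coculture cells were therefore the highest of the 4 populations and resistant coculture cells, from the same library, the lowest. The sum was weighted toward few genes, since BST2 held 40.1% of all member UMIs, IFITM2 25.4% and ISG20 5.74%. Sensitive cells in coculture were also more often in S or G2M phase than in monoculture (44.7% against 11.0% of cells) and had a lower median mitochondrial share (17.3% against 20.9%). Among G1 cells alone the log2 ratio was 0.46, with 14 of 31 members at least 1.5-fold higher (3.81% of all genes) and 0 lower (5.07%), and among cells under 20% mitochondrial UMIs it was 0.29.

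Of the 43 members, 35 reached 50 UMIs over the 2 sensitive populations. Of these, 15 were at least 1.5-fold higher in coculture on the scale of CPM + 1, where 5.13% of all 12326 genes with as many UMIs were, and none was 1.5-fold lower, where 5.91% of all genes were. The members' median log2 ratio was 0.41, beside -0.050 for all genes. The contrast was the one that chose the genes, and a gene that is near 0 in monoculture reaches 50 UMIs only through its coculture level, so these counts are no support for a rise. At the border of 1.5-fold lay IFI6 at 1.51 and IRF9 at 1.48. In resistant cells 36 members reached 50 UMIs, and 0 of them were 1.5-fold higher (0.661% of all genes) and 0 were 1.5-fold lower (0.0304% of all genes), with a median log2 ratio of -0.066 beside 0.028. Between the monocultures, 6 of 36 were 1.5-fold higher in resistant cells (6.65% of all genes) and 5 were lower (12.5%). Inside the coculture library, 0 of 36 were higher in resistant cells (2.04%) and 12 were lower (4.09%). The 2 comparisons against sensitive coculture cells share that population, so they are not independent of each other.

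**Figure D1:**
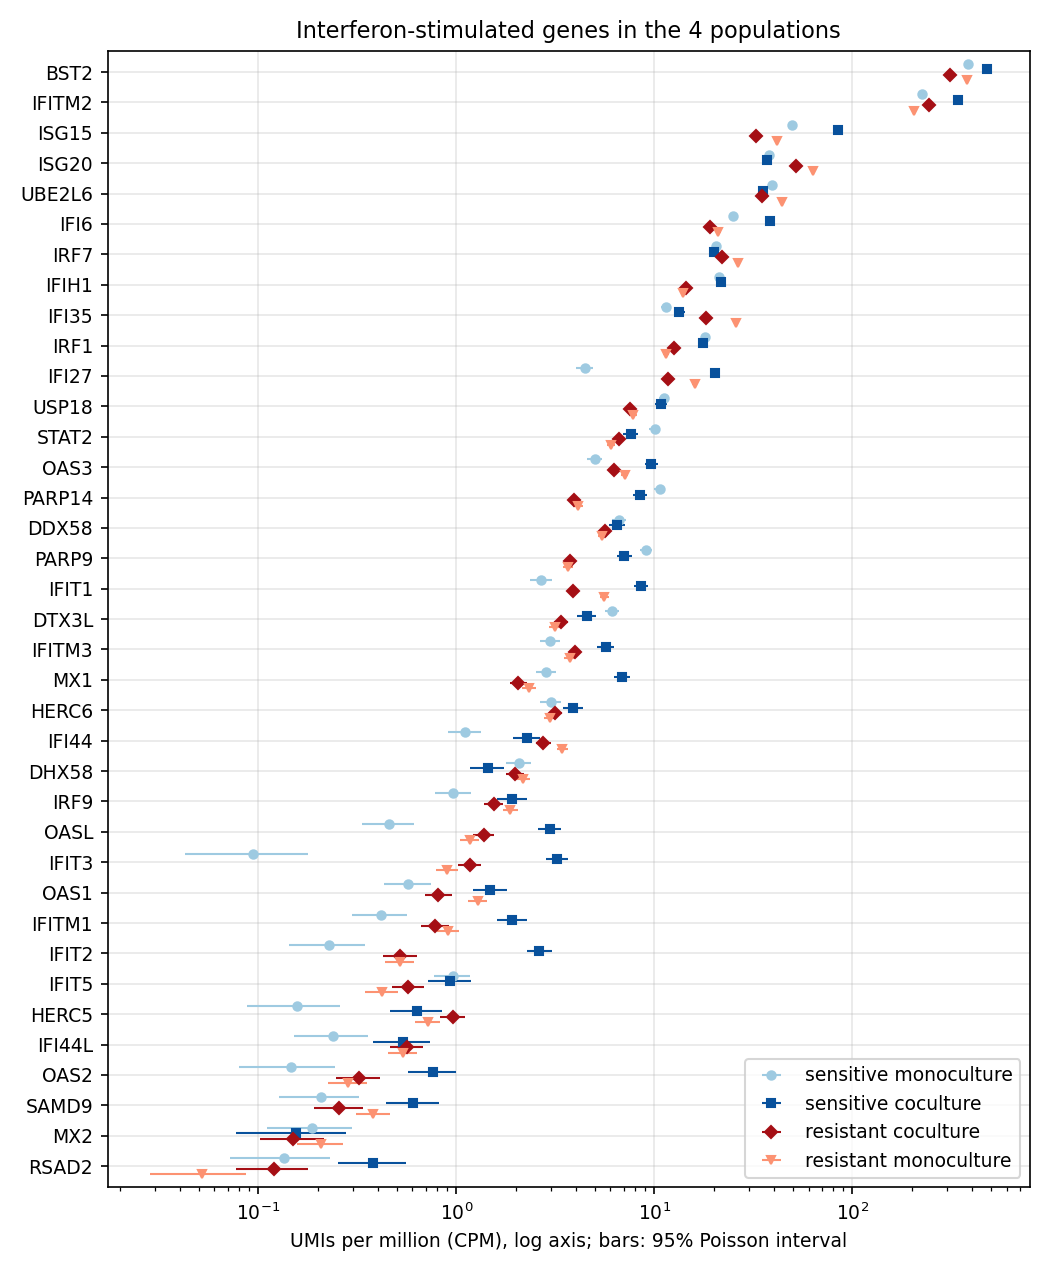
Level of each interferon-stimulated gene with at least 50 UMIs over the 4 populations, in CPM on a log axis, with 95% Poisson intervals as bars and 1 marker per population. The genes spread from below 0.1 CPM to above 400 CPM, and for most genes between 0.1 and 10 CPM the sensitive coculture marker lies to the right of the sensitive monoculture marker.

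The RNA sensors, which recognize double-stranded or uncapped RNA and start interferon production, did not differ by 1.5-fold in any comparison of CPM + 1. IFIH1 came closest, at a log2 ratio of -0.56 for the resistant over the sensitive monoculture. IFIH1 (MDA5) was at 21.2, 21.6, 14.5 and 14.02 CPM in sensitive cells alone, sensitive cells cocultured, resistant cells cocultured and resistant cells alone, and the order of populations is the same in all lists of 4 values that follow. DDX58 (RIG-I) was at 6.64, 6.47, 5.6 and 5.47 CPM, and DHX58 (LGP2), which modulates the other two sensors, at 2.07, 1.44, 1.98 and 2.17 CPM. The sensors were thus expressed in all populations, with IFIH1 higher in both sensitive populations than in both resistant ones.

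On the scale of CPM + 1, no transcription factor of the pathway passed 1.5-fold between sensitive coculture and monoculture. That scale compresses the ratio of IRF9, the lowest of those listed here. IRF7, the master factor for interferon alpha genes, was at 20.5, 19.9, 21.9 and 26.4 CPM. IRF1 was at 18.0, 17.5, 12.5 and 11.4 CPM and STAT2 at 10.0, 7.60, 6.61 and 6.03 CPM, and both were more than 1.5-fold lower in the resistant than in the sensitive monoculture. IRF9, the DNA-binding partner of STAT2, was the factor that differed most in sensitive cells, at 0.966 CPM (0.780 to 1.18) in monoculture and 1.92 CPM (1.61 to 2.27) in coculture, with 1.54 and 1.87 CPM in resistant cells.

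The IFIT proteins, which bind viral RNA that lacks the host's cap modification, had a log2 ratio of the summed UMIs of 1.95 (1.78 to 2.12) in sensitive cells. This value rests largely on the few cells of cluster 9, described further on, where 80.0% of the IFIT1 UMIs of sensitive coculture lay. Outside that cluster IFIT1 was at 1.09 CPM in sensitive monoculture and 1.74 CPM in sensitive coculture. In sensitive cells IFIT1 was at 2.68 CPM (2.36 to 3.03) without and 8.52 CPM (7.85 to 9.23) with resistant partners, with 3.87 and 5.58 CPM in resistant coculture and monoculture. IFIT2 was at 0.229, 2.62, 0.521 and 0.521 CPM, and IFIT3 at 0.0935, 3.23, 1.17 and 0.897 CPM. The 3 genes were therefore highest in sensitive coculture cells, while IFIT5, at 0.956, 0.931, 0.571 and 0.421 CPM, was not.

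Among the intracellular antiviral effectors, OASL, MX1, OAS1, OAS2 and OAS3 were at least 1.5-fold higher in sensitive coculture on the scale of CPM + 1. MX1, a GTPase that traps viral nucleocapsids, was at 2.84, 6.87, 2.05 and 2.33 CPM. OASL, a catalytically inactive relative of the oligoadenylate synthetases, was at 0.457, 2.96, 1.37 and 1.17 CPM. The synthetases, which activate RNase L, were at 4.99, 9.66, 6.24 and 7.06 CPM for OAS3, at 0.571, 1.48, 0.811 and 1.28 CPM for OAS1 and at 0.146, 0.762, 0.321 and 0.284 CPM for OAS2. Sensitive coculture had the highest level of the 4 populations for each of the 5 genes. For OAS1 its interval (1.21 to 1.79 CPM) overlapped that of resistant monoculture (1.15 to 1.42 CPM). Cluster 9, described below, held 79.6% of OAS2, 76.7% of OASL, 62.8% of MX1, 57.1% of OAS1 and 19.1% of OAS3 UMIs of sensitive coculture. Outside that cluster OASL was at 0.706 CPM in sensitive and 0.688 CPM in resistant coculture. ISG20, an exonuclease that degrades single-stranded RNA, behaved otherwise, at 38.1, 37.2, 51.7 and 63.1 CPM, with its highest level in the resistant monoculture. MX2 and RSAD2 had 11 to 56 and 13 to 27 UMIs per population. SAMD9 was at 0.208 and 0.607 CPM in sensitive monoculture and coculture, a ratio that the scale of CPM + 1 compresses to under 1.5-fold.

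The membrane restriction factors include the 2 most abundant members, BST2 and IFITM2, and the low IFITM1 and IFITM3. BST2 (tetherin), which holds budding virions at the cell surface, was at 385, 478, 311 and 377 CPM. IFITM2, which blocks fusion of virus with endosomes, was at 224, 343, 242 and 203 CPM, IFITM3 at 2.98, 5.70, 3.97 and 3.73 CPM and IFITM1 at 0.416, 1.92, 0.781 and 0.908 CPM. All 4 were highest in sensitive coculture cells, with BST2 below 1.5-fold. The IFITM genes are close paralogs, and how the counting treated reads that matched several of them was not examined here.

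ISG15, the ubiquitin-like modifier, was at 49.8 CPM (48.4 to 51.2) in sensitive cells alone, 84.5 CPM (82.4 to 86.7) in those cocultured, 32.6 CPM in resistant coculture and 41.7 CPM in resistant monoculture. Its conjugating enzyme UBE2L6 was at 39.1, 35.5, 34.8 and 44.0 CPM, and USP18, which removes ISG15 and restrains receptor signaling, at 11.2, 10.8, 7.55 and 7.83 CPM. The ligase HERC5 was at 0.156, 0.635, 0.957 and 0.716 CPM and HERC6 at 2.99, 3.88, 3.16 and 2.96 CPM. The scale of CPM + 1 compresses HERC5, which was under 1 CPM in every population. On that scale, ISG15 alone within the conjugation group passed 1.5-fold in sensitive cells, where it was higher in coculture. The PARP9, PARP14 and DTX3L genes, whose products form an ADP-ribosylation and ubiquitin ligase system, went the other way without passing 1.5-fold, with PARP14 at 10.6, 8.49, 3.91 and 4.13 CPM, PARP9 at 9.05, 7.04, 3.75 and 3.66 CPM and DTX3L at 6.11, 4.54, 3.38 and 3.15 CPM. All 3 were more than 1.5-fold lower in the resistant than in the sensitive monoculture.

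IFI27, which localizes to mitochondria and the nuclear membrane, had a ratio of CPM + 1 of 3.90 in sensitive cells. That of IFIT3 was 3.87, but the added 1 CPM compresses it strongly. In sensitive coculture 88.6% of the IFIT3 UMIs and 40.3% of the IFI27 UMIs lay in cluster 9. Outside that cluster the ratio of CPM + 1 of IFI27 was 3.53. Among G1 cells the log2 ratios on that scale were 2.16 for IFI27 and 2.40 for IFIT3. IFI27 was at 4.44 CPM (4.03 to 4.88) in sensitive cells alone and 20.2 CPM (19.2 to 21.3) in those cocultured. In resistant cells it was at 11.7 CPM in coculture and 15.9 CPM in monoculture, so that sensitive monoculture stood apart as the lowest. IFI6, which counters mitochondrial apoptosis, was at 25, 38.2, 19.0 and 21.0 CPM. IFI35 was at 11.5, 13.4, 18.2 and 25.7 CPM, highest in the resistant monoculture. IFI44 was at 1.10, 2.27, 2.75 and 3.42 CPM and IFI44L at 0.239, 0.536, 0.561 and 0.535 CPM, so for these 2 genes the sensitive monoculture was the lowest population. XAF1, CMPK2, EPSTI1, TRIM22, RTP4 and SAMD9L had between 0 and 16 UMIs in every population, too few to compare. RTP4 and SAMD9L had 0 UMIs in sensitive coculture cells, which allows a level of up to 0.0423 CPM.

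To see whether the difference was spread over the cells, each cell was thinned to 10000 UMIs, which left out 3, 0, 2 and 2 cells of the populations, and member UMIs were summed per cell. The members were divided at a mean of 10 CPM over the 4 populations, into 11 more abundant and 32 less abundant genes, a division made after the levels were seen. For all 43 members the median sensitive monoculture cell held 8 UMIs (25th to 75th percentile 5 to 11) and the median sensitive coculture cell 10 UMIs (8 to 13), with 10th percentiles of 4 and 5 and 90th percentiles of 14 and 18. Resistant cells had medians of 7 in coculture and 8 in monoculture. The shift therefore ran through the distribution, from the 10th percentile to the 90th. The share of sensitive coculture cells above 18 UMIs, the 95th percentile of sensitive monoculture cells, was 9.32% (8.10% to 10.7%, exact binomial), beside 4.39% of the monoculture cells themselves, 2.93% of resistant coculture and 4.42% of resistant monoculture cells.

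The 2 most abundant members, BST2 and IFITM2, made up most of the difference in the mean. The thinned mean of BST2 was 3.61 UMIs per cell in sensitive monoculture and 4.69 in coculture, with medians of 3 and 4, and that of IFITM2 was 2.22 and 3.46, with medians of 2 and 3. IFITM2 was seen in 85.5% of thinned sensitive monoculture cells and 95.2% of coculture cells (98.0% and 99.7% before thinning). ISG15 was seen in 24.7% and 33.3% of thinned cells (47.6% and 65.4% before thinning), IFI6 in 9.35% and 17.8%, and IFI27 in 1.98% and 6.99%. No population here should lack these genes, so the share that free RNA alone would give is not known for them.

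The summed UMIs of the 32 less abundant members differed mainly among the cells with the most of them. At 10000 UMIs, 49.1% of sensitive monoculture cells and 48.5% of sensitive coculture cells held at least 1 UMI of any of them, and the median of both was 0 UMIs and the 90th percentile 2. The 99th percentile was 6 in monoculture and 12.4 in coculture, and the highest cell held 32 and 135 UMIs. The equal shares of cells with any UMI are a net of members that went opposite ways. OAS3 was seen in 3.70% of thinned sensitive monoculture and 8.74% of coculture cells, IFITM3 in 2.68% and 5.05%, and IFITM1 in 0.481% and 2.14%. STAT2 was seen in 10.8% and 7.43%, PARP14 in 11.4% and 7.82%, and PARP9 in 8.87% and 6.56%. OAS3 and IFITM3 were thus seen in more cells of the coculture, unlike the sum. In sensitive coculture the tenth of cells with the most UMIs held 57.1% of the UMIs of these members, against 44.4% in sensitive monoculture, 52.1% in resistant coculture and 54.8% in resistant monoculture. For the 11 abundant members the same shares were 25.3%, 25.4%, 23.6% and 25.1%, and for the 15 MHC class I genes of a separate list 24.5%, 25.5%, 22.1% and 22.5%, in that same order.

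**Figure D2:**
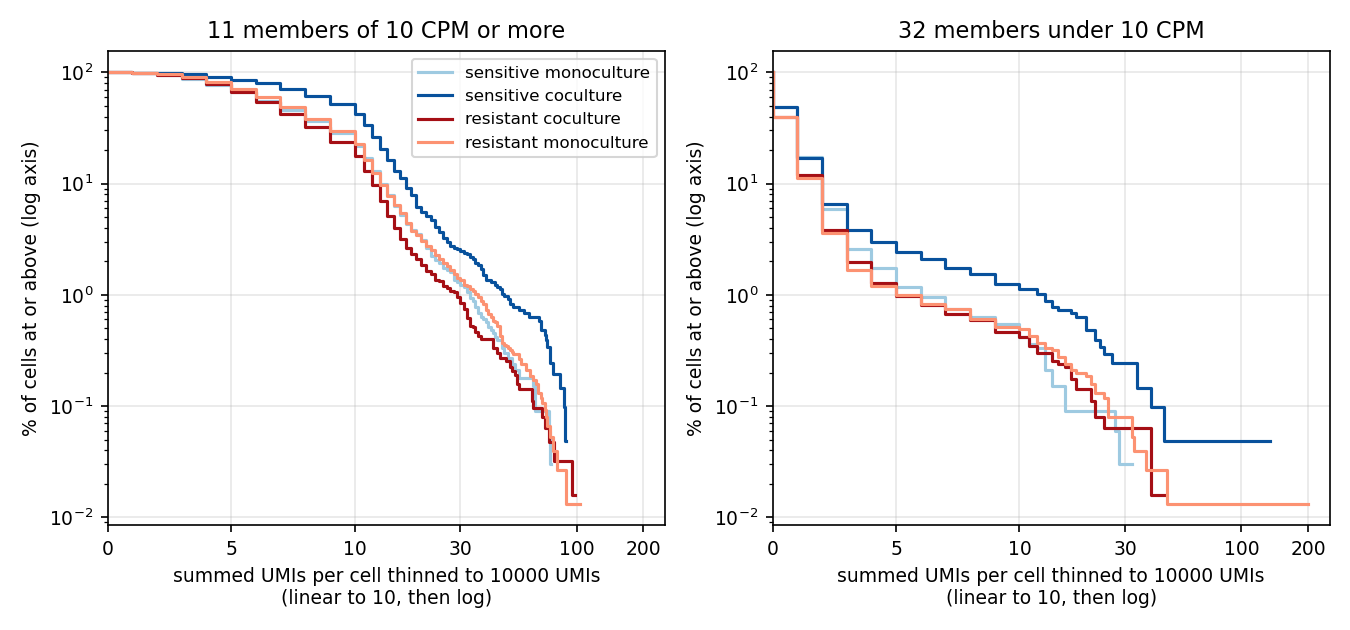
Share of cells (log axis, percent) that held at least the given number of summed member UMIs after thinning to 10000 UMIs per cell, for the 11 members of 10 CPM or more (left) and the 32 members under 10 CPM (right), with 1 line per population and a UMI axis that is linear to 10 and logarithmic beyond. On the left the sensitive coculture line lies above the others over most of its range, and on the right it meets the sensitive monoculture line at low counts and departs at the upper end.

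A large share of the UMIs of several of these members lay in cluster 9 of the deposited clustering, which held 39, 43, 67 and 108 cells of the 4 populations. Per the study's methods the clusters were made from the most variable genes of the same cells, so the high levels there are a description of the cluster and not an independent result. Cells of cluster 9 made up 2.06% of all UMIs of sensitive coculture cells and held 32.9% of the UMIs of the 32 less abundant members. In the order of sensitive monoculture, resistant coculture and resistant monoculture, the shares held were 12.0%, 18.1% and 24.0%, from 1.06%, 1.02% and 1.33% of the UMIs. By gene, cluster 9 held 88.6% of IFIT3, 88.2% of IFIT2, 80.0% of IFIT1, 76.7% of OASL and 62.8% of MX1 UMIs in sensitive coculture, but 4.95% of BST2, 3.31% of IFITM2 and 4.10% of ISG20 UMIs. In sensitive monoculture it held 11.1%, 63.6%, 59.7% and 29.5% of IFIT3, IFIT2, IFIT1 and OASL UMIs, where IFIT3 had only 9 and IFIT2 22. The shares of these genes were 85.0%, 69.2%, 64.6% and 50.4% in resistant coculture. In resistant monoculture it held 92.6%, 83.0%, 82.1% and 62.3% of IFIT3, IFIT2, IFIT1 and OASL UMIs. The median depth of its cells in sensitive coculture, 32660 UMIs, was close to the 34130.5 of the other cells, and 23.3% of them were in S or G2M.

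Outside cluster 9, the log2 ratio of sensitive coculture over monoculture was 0.0038 (-0.050 to 0.057) for the 32 less abundant members, against 0.38 (0.33 to 0.43) in all cells, again a net of members on both sides of 0. For the 11 abundant members it was 0.36 (0.35 to 0.38), against 0.41 (0.39 to 0.42). For all 43 it was 0.34. Among the 29 members that kept 50 UMIs outside the cluster, 8 were at least 1.5-fold higher in coculture (5.1% of all genes) and none was 1.5-fold lower (5.92%). These were IFI27 at 3.53-fold, IFITM1 at 1.81-fold, IFITM3 at 1.77-fold, OAS3 at 1.75-fold, IRF9 at 1.56-fold, IFI6 at 1.54-fold, IFITM2 at 1.53-fold and MX1 at 1.505-fold. On the same scale IFIT1 went from 2.59-fold to 1.31-fold, OASL from 2.72-fold to 1.29-fold and ISG15 from 1.68-fold to 1.41-fold. Adding 1 CPM compresses the ratio of genes this low. In plain CPM outside the cluster, IFIT1 was at 1.09 and 1.74 CPM in sensitive monoculture and coculture and OASL at 0.326 and 0.706 CPM, and IFIT2 was at 0.0840 and 0.317 CPM and IFIT3 at 0.0840 and 0.374 CPM. These 4 genes were thus still higher in coculture outside cluster 9, at low levels. IFIT2 and IFIT3 had 22 and 26 UMIs left in sensitive coculture, and 8 each in monoculture. PARP14 moved from 0.817-fold to 0.6697-fold.

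**Figure D3:**
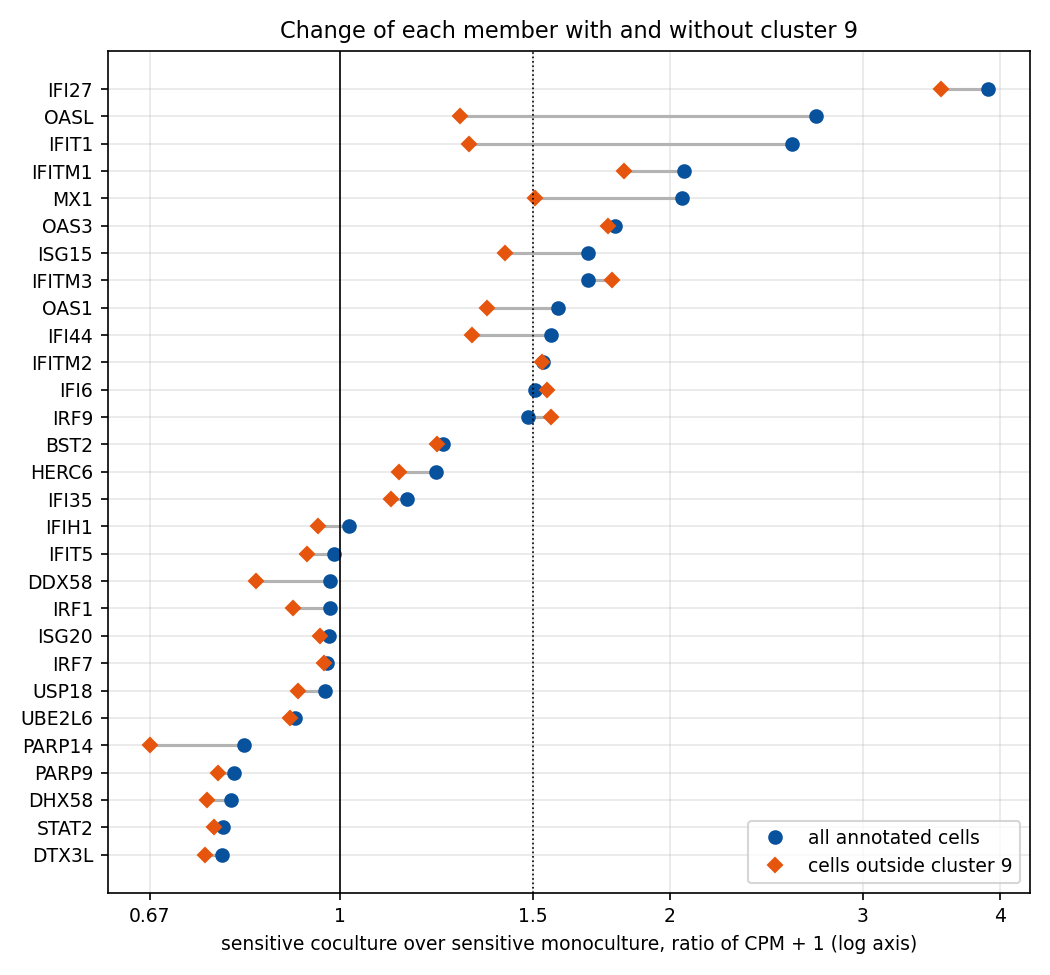
Ratio of CPM + 1 in sensitive coculture over sensitive monoculture on a log axis, for the 29 members with at least 50 UMIs in both calculations, in all annotated cells (circles) and in cells outside cluster 9 (diamonds), with the dotted line at 1.5-fold. On this scale, which compresses low genes, IFIT1 and OASL move from 2.59 and 2.72 to 1.31 and 1.29, while IFITM2, IFI6 and OAS3 stay close to their circles.

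Single cells held a large part of the UMIs of some members. In sensitive coculture the cell with the most UMIs of the less abundant members, a G1 cell of cluster 9 with 40008 UMIs, held 138 IFIT1, 94 IFIT2, 100 IFIT3, 100 OASL and 176 ISG15 UMIs, which is 22.8% of IFIT1, 50.5% of IFIT2, 43.7% of IFIT3 and 47.6% of OASL UMIs of its population. It held 2 Venus and 0 mCherry UMIs. In resistant monoculture 1 cell held 399 IFIT1, 77 IFIT2, 147 IFIT3 and 90 OASL UMIs. The corresponding cell of sensitive monoculture held 20, 6, 0 and 1 UMIs, and that of resistant coculture 30, 4, 19 and 14. Without the top cell of each population IFIT3 was at 0.0935 and 1.82 CPM in sensitive monoculture and coculture, IFIT2 at 0.166 and 1.30 CPM, OASL at 0.447 and 1.55 CPM and IFIT1 at 2.47 and 6.58 CPM. The level of each of the 4 genes was thus still higher in sensitive coculture. In total, 50% of the IFIT2 UMIs of sensitive coculture were held by 1 cell, 50% of IFIT3 and of OASL by 2 cells and 50% of IFIT1 by 9 cells, compared with 74 cells for ISG15, 594 for BST2 and 642 for IFITM2.

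The same resistant monoculture cell held 57 IFNL1, 10 IFNL2 and 3 IFNL3 UMIs, out of 80 UMIs of these interferon lambda genes in its population. Interferon lambda UMIs numbered 2, 6, 23 and 80 in the 4 populations, in 1, 5, 15 and 11 cells, of which 0, 2, 9 and 3 lay in cluster 9. The 5 such cells of sensitive coculture, which include the top cell with 2 IFNL1 UMIs, held 95 IFIT2 and 105 IFIT3 UMIs, of which 94 and 100 were in the top cell alone. The 1 such cell of sensitive monoculture held 0 IFIT1, IFIT2 and IFIT3 UMIs. The 15 such cells of resistant coculture held 37.5% of the IFIT2 and 39.5% of the IFIT3 UMIs of their population. The 11 of resistant monoculture held 90 IFIT2 and 156 IFIT3 UMIs, of which 77 and 147 were in its top cell. IFNB1 had 1 UMI in sensitive coculture and 0 in the other populations, and IFNA1, IFNA2, IFNE and IFNG had 0 in all 4. IFNLR1, the specific subunit of the interferon lambda receptor, had 1, 0, 0 and 1 UMIs.

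Counted by the number of different less abundant members seen in a thinned cell, 118 of 2059 sensitive coculture cells (5.73%, 4.77% to 6.82%) held 3 or more, and these cells held 48.1% of the UMIs of these members. In sensitive monoculture 159 of 3326 cells (4.78%, 4.08% to 5.56%) did so and held 30.4%. The intervals overlap. The shares were 3.34% of resistant coculture and 2.93% of resistant monoculture cells. Of the 118 cells, 36 were in cluster 9. Of the pairs given here, all but the last were seen together more often than if each member were placed in cells independently. In sensitive coculture IFIT3 was seen in 21 thinned cells, IFIT1 in 62, and both in 17, where 0.632 would be placed together. MX1 and IFIT1 shared 35 cells, where 2.29 would be, and ISG15 and IFI6 194 cells, where 122 would be. ISG20 and IFITM2 shared 547 cells, where 553 would be.

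Pearson correlations are given as a description, over thinned cells that share a library. In sensitive coculture, for the 20 members with a mean of at least 0.05 UMI per cell, the median r over 190 pairs was 0.11. The other populations are not set beside it, since fewer members reached that mean there. The median r of such a member with a gene outside the list was -0.0017. Correlations among IFIT1, IFIT2, IFIT3 and OASL ran from 0.87 to 0.96 in sensitive coculture, and from 0.24 to 0.62 without the top cell, so they rest in good part on that cell. ISG15 with MX1 stood at 0.58 and without that cell at 0.61, and IFI27 with IFI6 at 0.57 with and without it. BST2 and IFITM2, seen in nearly all cells, correlated with each other at 0.14.

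**Figure D4:**
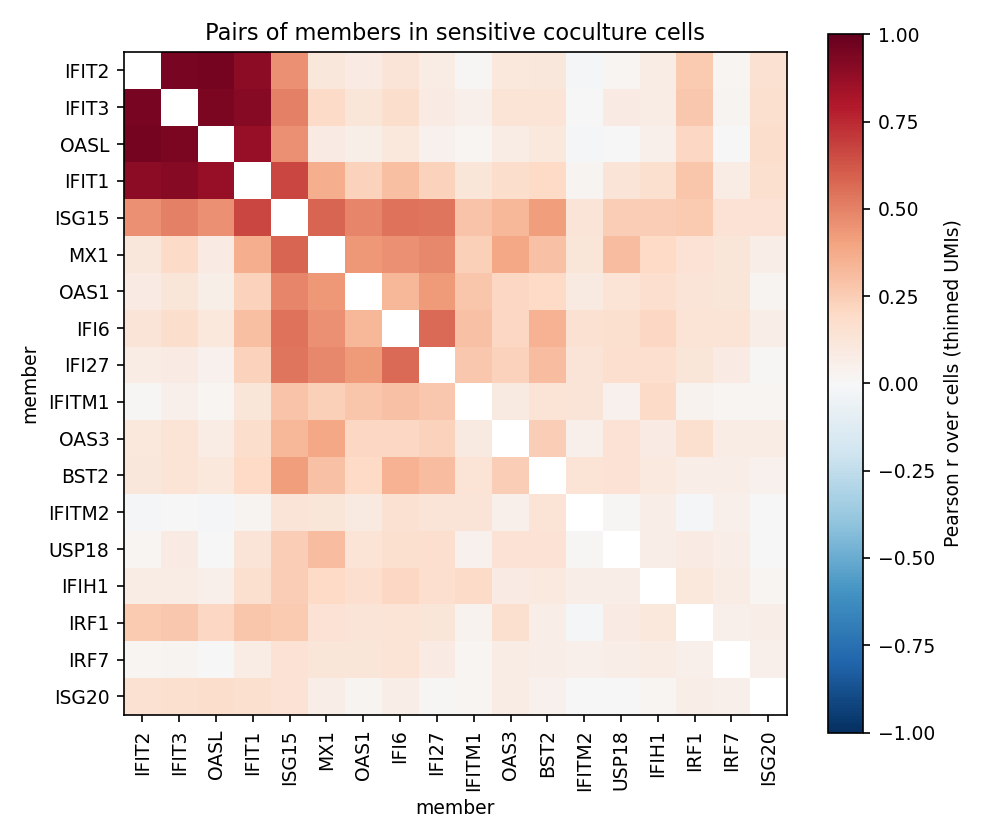
Pearson correlation of thinned UMIs over 2059 sensitive coculture cells for pairs of 18 members, on a color scale from -1 to 1 with the diagonal left blank. The members and their order were chosen by hand, so which genes lie side by side is not a result. IFIT2, IFIT3, OASL, OAS1 and IFITM1 are shown though under the mean of 0.05 UMI used for the median r, and some members above it are not shown. In this order IFIT1, IFIT2, IFIT3 and OASL lie at the upper left, with correlations that rest largely on 1 cell. ISG15, MX1, OAS1, IFI6 and IFI27 follow, and ISG20, IRF7 and IFITM2 are pale.

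Genes outside the member list were ranked by their correlation with the summed members over sensitive coculture cells, in a ranking of 6756 genes whose mean reached 0.1 UMI per thinned cell. The highest was B2M, the light chain of MHC class I, at 0.49, and HLA-B at 0.32, HLA-C at 0.27 and LGALS3BP at 0.25 were also near the top. These 4 genes of the pathway lists were named here after their values were seen. Of genes in no list, the 10 highest were PSME2 and ZC3HAV1 at 0.19, SHFL at 0.16, PSME1 at 0.15, ZNFX1 and OGFR at 0.14, H3F3B at 0.12, PHACTR4 and SHISA5 at 0.10 and DNAJA1 at 0.098. PSME1 and PSME2 encode the proteasome activator, and ZC3HAV1 encodes the zinc-finger antiviral protein. The r of PSME2 was 0.25 in sensitive monoculture, 0.18 in resistant cells cocultured and 0.20 in those alone, and that of ZC3HAV1 was 0.022, 0.12 and 0.053. The weak values at the lower end of this list are given only to complete it.

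By cell cycle phase, the summed members of sensitive cells in G1 were at 904.9 CPM in monoculture and 1248 CPM in coculture, those in S at 964.9 and 1161 CPM, and those in G2M at 982.1 and 1178 CPM. The log2 ratios were 0.46 (0.45 to 0.48) in G1, 0.27 (0.23 to 0.31) in S and 0.26 (0.22 to 0.30) in G2M, so the level was higher in coculture in each phase and the ratio was larger in G1. In resistant cells the log2 ratio was -0.061, -0.19 and -0.20 in the same phases. The less abundant members of resistant cells differed in sign between phases, with log2 ratios of 0.12 (0.068 to 0.16) in G1, -0.32 in S and -0.095 in G2M. The S phase value includes the top cell of resistant monoculture, which was called as S. That cell alone held 935 of the 6005 UMIs of these members in the S cells of its population.

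By cluster, the summed members were compared in populations with at least 50 cells in the cluster. Cluster 9 was far above the rest, at 4938 CPM in resistant coculture and 5067 CPM in resistant monoculture cells, and its sensitive populations were under 50 cells. The other clusters lay between 686 and 1437 CPM. In the 3 clusters that held enough sensitive cells of both cultures, coculture and monoculture were at 1144 and 1103 CPM in cluster 3, at 1003 and 877 CPM in cluster 4 and at 1115 and 920.5 CPM in cluster 7. Coculture was higher in each of the 3, by less than in the whole populations. Most coculture cells were in cluster 3 (1087 cells) and most monoculture cells in cluster 4 (1945 cells). The clustering used the most variable genes of the same cells, and which members were among them is not known. In cluster 8, which held 681 sensitive monoculture cells, the sum was 713.7 CPM. In resistant cells monoculture was the higher one in clusters 0, 1, 2, 5, 6, 10 and 13, while in cluster 11 coculture was, at 886 against 796 CPM.

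**Figure D5:**
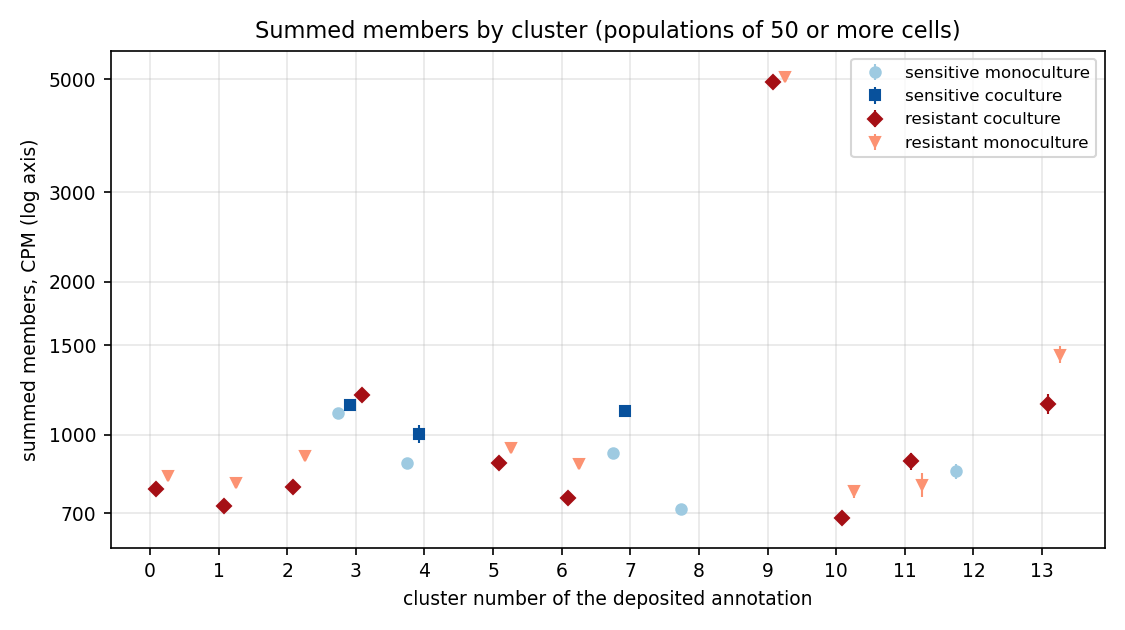
Summed level of the 43 members in each cluster of the deposited annotation, in CPM on a log axis with 95% Poisson intervals, for populations with at least 50 cells in the cluster and 1 marker per population. Cluster 9 stands at about 5000 CPM in both resistant populations, and the other clusters lie between 686 and 1437 CPM.

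Of 68 other listed genes, which are genes of interferon signaling, nucleic acid sensing and antigen presentation together with 3 DNA methyltransferases, 65 were found. In the sensitive populations 46 reached 50 UMIs, with 4 at least 1.5-fold higher in coculture (5.13% of all genes), 4 at least 1.5-fold lower (5.91% of all genes) and a median log2 ratio of 0.012. Those higher were TMEM173 (STING, the relay of cytosolic DNA sensing) at 2.39 and 5.09 CPM in monoculture and coculture, PSMB10, an immunoproteasome subunit, at 9.44 and 19.8 CPM, PLSCR1, a phospholipid scramblase, at 3.82 and 6.69 CPM and DNMT1, the maintenance DNA methyltransferase, at 59.1 and 89.4 CPM. Those lower were the interferon gamma receptor chains IFNGR1 at 10.5 and 5.09 CPM and IFNGR2 at 18.8 and 9.58 CPM, the feedback inhibitor SOCS1 at 3.94 and 1.69 CPM and the peptide transporter TAP1 at 14.4 and 7.77 CPM. Of the MHC class I genes, 1 of 14 measured was higher and 1 was lower, beside the same shares of all genes, and their summed level was 1007 CPM in sensitive monoculture and 963.7 CPM in coculture. The kinases JAK1, JAK2 and TYK2, and the receptor chains IFNAR1 and IFNAR2 for type I interferon, did not pass 1.5-fold on the scale of CPM + 1. In resistant cells 0 of 47 listed genes with 50 UMIs passed 1.5-fold between coculture and monoculture in either direction, beside 0.661% of all genes higher and 0.0304% lower.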

How the data were processed

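Spheroid cells were profiled with the 10X Genomics 3′ kit in 3 libraries, 1 per condition. The authors deposited raw UMI counts per gene and barcode, made with Cell Ranger 3.0.2 on GRCh37, and an annotation with each cell's UMI count, mitochondrial percent, phase, cluster and lineage. Per the authors' methods, cells were filtered on detected genes, UMIs, mitochondrial share, a scrublet doublet score and transgene UMIs before clustering in Seurat. In the deposited counts, not all annotated cells had at least 2 UMIs of their own transgene. Requiring them left 34749 of 88025 member UMIs in sensitive monoculture and 48745 of 85796 in sensitive coculture. The 12 other columns of the annotation were not used. Here the 19237 annotated cells were summed by population over genes with a symbol (0.568% to 0.617% of UMIs fell on rows without one), and CPM was computed with exact Poisson intervals (95%). Ratios of sums have exact conditional binomial intervals, and shares exact Clopper-Pearson intervals. A gene was compared where 2 populations together held 50 UMIs, as log2 of CPM + 1, with 1.5-fold as the limit, which understates changes of low genes. Cells were thinned to 10000 UMIs without replacement (random seed 20). Doublets were scored again with scrublet and used in an alternative only (limit 0.25). Normalization factors by TMM were computed with edgeR 4.0.16 (R 4.3.3), and the rest was done with Python 3.11.15, numpy 2.4.6, scipy 1.17.1 and scanpy 1.11.5. The calculations were checked on simulated counts. For the intervals these were Poisson draws, so the check does not cover the gathering of member UMIs in few cells. In sensitive coculture the variance over the mean of summed member UMIs per thinned cell was 9.87. No test between conditions was made, since there is 1 library of each. The members and lists were chosen with earlier results of these data known. All members could be named, with other list genes past 1.5-fold in sensitive cells and the 10 genes in no list most correlated with the members. MB21D1, IKBKE, CCL5 and PECAM1 of the lists were not analysed here, and some list genes are not reported here. A count of 0 allows up to 3 counts.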

Additional observations from a re-analysis of the deposited data

Results flagged for a closer look

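The summed level of the 43 members moved in opposite directions between coculture and monoculture, with a log2 ratio of 0.40 in sensitive and -0.13 in resistant cells. With 1 library per condition this difference was not tested.

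Interferon lambda UMIs were also present in barcodes that the annotation leaves out, which the comparisons do not use: 6 UMIs in 2 barcodes of the sensitive monoculture, 54 UMIs in 21 barcodes of the coculture, with at most 25 in 1 barcode, and 12 UMIs in 5 barcodes of the resistant monoculture. In that order the left-out barcodes numbered 5314, 11876 and 3945, with 77157363, 248946284 and 88708187 UMIs in all. The pools differ in size, so these counts are not rates. Only in the coculture do left-out barcodes include some inside the quality limits. Interferon beta (IFNB1) had 4 UMIs, all in 1 such barcode, in the resistant monoculture. These counts are above the 3 counts that a count of 0 allows. In the left-out barcodes of the sensitive monoculture, 1 barcode held 84.2% of the 139 IFIT3 UMIs, beside 9 IFIT3 UMIs in all 3329 annotated cells of that library.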

How the results depend on the processing

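The log2 ratio of the summed members in sensitive cells (0.40) kept its sign in all 11 alternatives. It was 0.47 with at least 2 UMIs of the own transgene, 0.29 under 20% mitochondrial UMIs, 0.46 in G1, 0.43 with TMM factors, 0.44 as a mean of per-cell CPM and 0.44 after subtracting resistant-cell RNA. It was 0.34 without cluster 9 and 0.38 with the less abundant members alone, both chosen after seeing the data. In resistant cells (-0.13) it was -0.14, -0.061 and -0.20 with the own transgene, G1 and TMM alternatives, -0.22 without the 3 members with most UMIs, -0.11 without cluster 9 and -0.061 for the less abundant members. Between the monocultures (-0.0060) the sign reversed with the own transgene (0.031), in G1 (0.031), with TMM (0.11) and as a mean of per-cell CPM (0.037), and the value was -0.11 under 20% mitochondrial UMIs, -0.031 without cluster 9 and -0.22 for the less abundant members. The cause was not tested. The ratio of the less abundant members in resistant cells (-0.061) changed sign without cluster 9 (0.042) and was 0.00054 without the top cell of each population. The members' median (0.41) was 0.18 without cluster 9 and 0.62 and 0.095 with pseudocounts of 0.1 and 10 CPM. The count of 15 members became 8 without cluster 9 (5.1% of all genes), where IFIT2, IFIT3 and OAS2 fell under 50 UMIs, IFIT1, OASL, ISG15, OAS1 and IFI44 fell under 1.5-fold and IRF9 passed it. The count was 11 under 20% mitochondrial UMIs and 19 with a pseudocount of 0.1 CPM. With a pseudocount of 10 CPM, which shrinks ratios of low genes by construction, it was 3. The share of all genes was not computed for these last alternatives, so their counts cannot be read as a result about the members. The share of sensitive coculture cells above the monoculture percentile (9.32%) was 13.4% with the own transgene, 7.06% under 20% mitochondrial UMIs, 7.19% without the 3 members with most UMIs and 7.97% at 5000 UMIs. The share of member UMIs in the top 10% of these cells (27.1%) was 25.5% under 20% mitochondrial UMIs, 29.2% in G1, 21.2% without cluster 9, 26.6% without the top cell of each population (also chosen after seeing the data), 50.5% without the 3 members with most UMIs, 27.9% at 5000 UMIs and 25.8% without thinning.

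With 1 library per condition, culture, library and handling cannot be told apart, and no paired analysis was possible because each condition has 1 library. Depth limits the members under 1 CPM, whose ratios rest on few UMIs.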
